A study of Mus musculus with 6 samples.

Results

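Cdh1, Cdh17, Cadm1, Cadm3, Ctnna1, Ctnnd1, Jup and Epcam encode cell adhesion molecules and their cytoplasmic partners. These 8 genes were chosen because the mRNAs of Cdh1, Cdh17 and Cadm3 were higher in Nfkb2-/- than in WT bone marrow-derived dendritic cells (BMDCs). The same 6 libraries which chose them also give their values, so the difference between genotypes is given below as a description. Where a fit over all genes called any of the 8, nothing is read from that call. The files hold 56748 gene IDs. Of these, 21849 had a gene name and at least 50 counts over the libraries, and all 8 genes were among them.

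Marrow donors were WT mice of the C57BL/6 strain and mice with a global Nfkb2 deletion, and the age of both was not given in the sources used here. Nfkb2 encodes p100, the precursor of the noncanonical NF-κB subunit p52. Marrow cells were kept for 9 days in culture, first in 20 ng/mL GM-CSF for 5 days and then in 20 ng/mL GM-CSF with 10 ng/mL IL-4 for 4 days according to the labels, while the methods give IL-4 from day 6. Non-adherent cells were collected, and polyadenylated RNA was sequenced from unstimulated cells, with 3 biological replicates per genotype. Loss of Nfkb2 in these mice is not restricted to dendritic cells, and all marrow cells that entered the cultures carried it.

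Classical cadherins are transmembrane proteins that bind the same cadherin on a neighbouring cell in the presence of calcium. Their cytoplasmic tails bind β-catenin or its relative plakoglobin, α-catenin links these to actin, and a further catenin bound close to the membrane holds the cadherin at the cell surface. E-cadherin, encoded by Cdh1, is the main cadherin of epithelia, and it also joins Langerhans cells to keratinocytes and dendritic cells in culture clusters to each other, whose disruption starts a form of maturation. Cadm proteins are adhesion molecules of the immunoglobulin superfamily that bind each other or nectin-like partners without calcium, and Epcam is an epithelial adhesion molecule also present on Langerhans cells.

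Sequence upstream of the start sites was available for Cadm3, Jup, Epcam and Ctnnd1, that is for 4 of the 8 genes. The 250 bases before the RefSeq start site (build GRCm38.p6) are shown for Cadm3, which was higher in Nfkb2-/- cells, and for Jup and Epcam, which overlapped between the genotypes, each written 5′ to 3′ on the strand of its gene. Capitals mark matches, on either strand, to any of 3 motifs searched for: the E-box CACCTG bound by Snail and Zeb repressors, the TCF/LEF core CTTTGA and the κB consensus.
Cadm3, chr1:173367696-173367945, minus strand: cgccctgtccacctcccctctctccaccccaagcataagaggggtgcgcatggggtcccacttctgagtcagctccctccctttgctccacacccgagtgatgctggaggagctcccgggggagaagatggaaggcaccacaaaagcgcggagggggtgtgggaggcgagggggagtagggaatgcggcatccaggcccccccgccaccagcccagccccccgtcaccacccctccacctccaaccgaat
Jup, chr11:100397791-100398040, minus strand: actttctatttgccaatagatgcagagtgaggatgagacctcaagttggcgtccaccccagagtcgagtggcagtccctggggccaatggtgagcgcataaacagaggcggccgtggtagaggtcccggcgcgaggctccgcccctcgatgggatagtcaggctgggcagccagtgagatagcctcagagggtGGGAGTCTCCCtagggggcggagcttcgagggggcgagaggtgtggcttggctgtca
Epcam, chr17:87635729-87635978, plus strand: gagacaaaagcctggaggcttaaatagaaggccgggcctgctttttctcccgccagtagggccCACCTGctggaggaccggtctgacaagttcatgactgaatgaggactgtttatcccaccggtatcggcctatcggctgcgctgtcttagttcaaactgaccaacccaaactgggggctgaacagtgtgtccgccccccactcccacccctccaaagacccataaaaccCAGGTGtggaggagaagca

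The Cadm3 stretch held none of these letters on either strand. The Jup stretch held the κB consensus, read from bases 57 to 48 before the start on the strand of the gene and from bases 56 to 47 on the other strand. The Epcam stretch held the E-box at bases 187 to 182 on its own strand and at bases 19 to 14 on the other strand. Over 32851 promoter stretches of the same length, 17.2% held the E-box, 13.8% the TCF/LEF core and 3.9% the κB consensus. A match describes the letters in the window and says nothing of binding.

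Depth ranged from 29863927 to 55623068 counts per library, and values below are CPM, counts scaled to a common library total after TMM normalization. Nfkb2 mRNA itself stood at 215, 154 and 355 CPM in WT against 44.8, 32.3 and 32.6 CPM in Nfkb2-/- BMDCs, with a log2 fold change of -2.72 (SE 0.33, adjusted p = 0.0307 by edgeR's quasi-likelihood test). The libraries carried the markers of dendritic cells: all 9 were detected, with a summed level of 4404 to 8262 CPM in WT and 6213 to 6678 CPM in Nfkb2-/- libraries. A pair of libraries stood apart. Nfkb2-/- replicate 1 had counts on 47952 gene IDs against 27692 to 33841 in the other libraries, and it held the highest value for 31.2% of all genes tested and for 62.0% of those with a mean under 1 CPM. WT replicate 3 had a summed level of the 7 macrophage markers of 118 CPM, against 734 and 846 CPM in the other WT libraries and 528 to 638 CPM in Nfkb2-/-. As these are bulk cultures, more cells of a type and more mRNA per cell cannot be told apart.

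The 3 genes that led the choice were much more abundant in Nfkb2-/- BMDCs, whereas their partners were not. Cdh17 was about 24.2-fold, Cadm3 14.4-fold and Cdh1 3.82-fold higher, in each case with no overlap between the genotypes. Ctnna1 was lower in every Nfkb2-/- library than in any WT library, and Cadm1, Ctnnd1, Jup and Epcam overlapped. By the threshold applied to all genes (edgeR, adjusted p-value below 0.05 with more than a 1.2-fold change), 2 of the 8 genes, Cdh17 and Cadm3, were called, both higher, where 1.14% of the genes tested were called, 0.453% higher and 0.682% lower. Without overlap were 4 of the 8, 3 higher and 1 lower, beside 24.7% of the genes tested, 12.7% higher and 12.0% lower. Since the genes were chosen on this contrast, nothing is read from these counts. The median log2 fold change of the 8 was 0.06 and that of all genes tested 0.08.

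**Figure D1:**
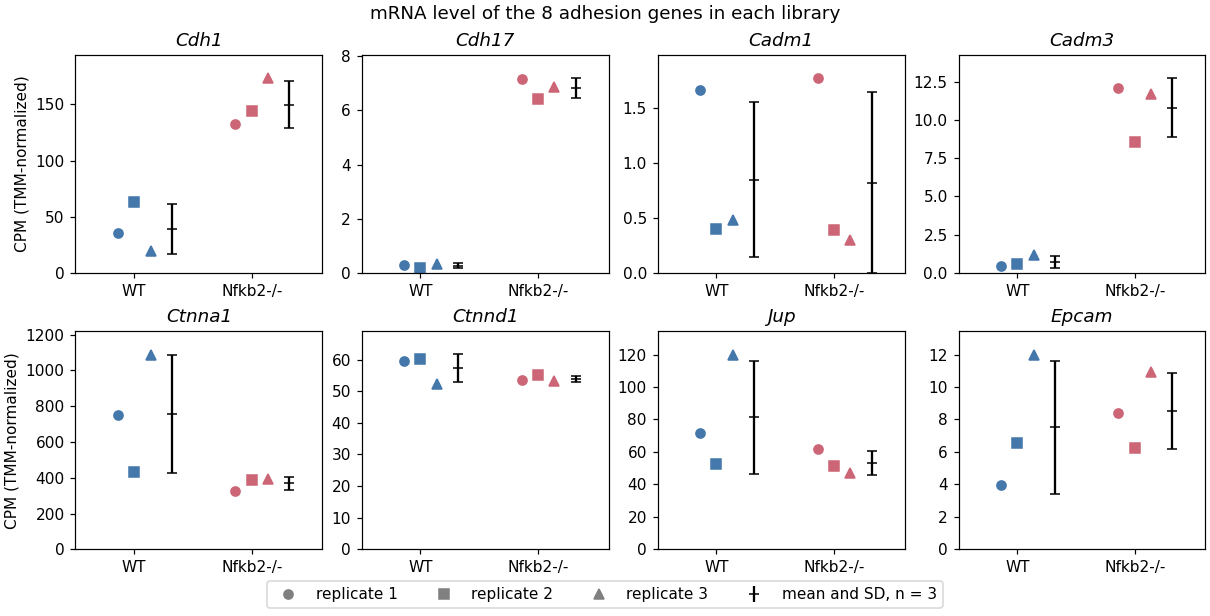
mRNA level of each of the 8 genes as TMM-normalized CPM (linear axes from 0, with a scale of their own for each gene) in 3 WT and 3 Nfkb2-/- libraries, with marker shapes for the replicate number and a bar for the mean and SD. Cdh1, Cdh17 and Cadm3 sit higher in all 3 Nfkb2-/- libraries, Ctnna1 sits lower, and the other 4 genes overlap.

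Cdh1 (ENSMUSG00000000303, chr8:106603351-106670246, plus strand, GRCm38) encodes E-cadherin. It was at 35.2, 62.8 and 19.7 CPM in WT replicates 1, 2 and 3 and at 132, 144 and 173 CPM in Nfkb2-/- replicates 1, 2 and 3. The lowest Nfkb2-/- library thus lay 2.10-fold above the highest WT library. The WT libraries differed 3.19-fold among themselves, from replicate 3, which was also the library with few macrophage transcripts, to replicate 2, whereas the Nfkb2-/- libraries stayed within 1.31-fold. Means were 39.2 ± 21.8 CPM in WT and 149.7 ± 21.2 CPM in Nfkb2-/- (SD, n = 3), a log2 fold change of 1.93 (SE 0.39), which was not called by edgeR. DESeq2 and limma voom, which called 8.65% and 2.23% of all genes tested, did call Cdh1, as did edgeR with no filter beyond 1 count. With WT replicate 3 left out the log2 fold change was 1.62, and with WT replicate 2 left out 2.45, at which Cdh1 was called. Since Cdh1 was chosen on this contrast, nothing is read from these calls. What the macrophage content had to do with the WT spread was not tested.

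Cdh17 (ENSMUSG00000028217, chr4:11758147-11817895, plus strand) encodes LI-cadherin, a cadherin of intestinal epithelium with a short tail that does not bind catenins. It was nearly silent in WT cells, with 0.308, 0.185 and 0.344 CPM, from 13, 6 and 10 counts. In Nfkb2-/- cells it was at 7.15, 6.43 and 6.88 CPM, from 242, 195 and 368 counts. The gap between the genotypes was the widest of the 8 genes: the lowest Nfkb2-/- value was 18.7-fold above the highest WT value, while Nfkb2-/- libraries differed 1.11-fold. The log2 fold change was 4.59 (SE 0.30). Nfkb2-/- replicate 1, which held most of the highest values among weakly expressed genes, was the highest here too, at 7.15 beside 6.43 and 6.88 CPM. Without that library the log2 fold change was 4.55. Over all 13 alternatives the log2 fold change ranged from 4.38 to 4.75.

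Cadherin tails meet catenins, and the catenins did not follow Cdh1. Ctnna1 (ENSMUSG00000037815, chr18:35118859-35254779, plus strand), α-catenin, which ties the complex to actin, was the most abundant of the 8 genes at 751, 432 and 1089 CPM in WT and 326, 386 and 392 CPM in Nfkb2-/-. All Nfkb2-/- libraries were below all WT libraries, but the gap was narrow, as the lowest WT library was 1.10-fold above the highest Nfkb2-/- library. The log2 fold change was -1.04 (SE 0.32), called by DESeq2 and not by edgeR or limma voom, and -0.68 without WT replicate 3. Lrrtm2, a gene of neuronal synapses on the other strand, lies within Ctnna1 and shares 95 bases of exon with it. It was at 119, 64.1 and 116 CPM in WT and at 37.1, 66.8 and 64.6 CPM in Nfkb2-/-, and without knowledge of strand in the counting the reads of both genes cannot be told apart in that stretch.

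Ctnnd1 (ENSMUSG00000034101, chr2:84600071-84650765, minus strand), the catenin that binds the membrane-near part of the tail and keeps cadherins from being internalized, was the steadiest gene. It was at 59.4, 60.1 and 52.2 CPM in WT and at 53.6, 55.0 and 53.3 CPM in Nfkb2-/-, so the genotypes overlapped with a log2 fold change of -0.09 (SE 0.13). Exons of Ctnnd1 cover 7319 bases, of which 4482 are shared with Gm28635, a gene on the same strand with 0 counts over all libraries. How reads in the shared bases were assigned is not given in the sources used here, so the level of Ctnnd1 is uncertain. Jup (ENSMUSG00000001552, chr11:100368958-100397763, minus strand), plakoglobin, which takes the place of β-catenin on cadherin tails and also serves desmosomes, was at 71.7, 52.6 and 120.0 CPM in WT and at 61.6, 51.1 and 47.2 CPM in Nfkb2-/-. Only WT replicates 1 and 3 lay above the Nfkb2-/- libraries. Its log2 fold change of -0.61 (SE 0.30) shrank to -0.22 without WT replicate 3. Ctnnb1, β-catenin itself and no member of the set, was at 162, 133 and 171 CPM in WT and at 139.6, 138 and 134 CPM in Nfkb2-/-. Its log2 fold change was -0.18 (SE 0.15, adjusted p = 0.571 by edgeR), so a difference in Ctnnb1 mRNA was not detected.

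Per kilobase of exon, E-cadherin mRNA thereby gained on each of its partners. The ratio of Cdh1 to Ctnnb1 in CPM per kb was 0.247, 0.534 and 0.131 in WT and 1.07, 1.19 and 1.47 in Nfkb2-/- libraries. The ratio of Cdh1 to Ctnna1 was 0.0658, 0.204 and 0.0254 in WT and 0.568, 0.524 and 0.620 in Nfkb2-/-. Neither ratio overlapped between the genotypes, which the choice of Cdh1 makes likely.

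Cadm3 (ENSMUSG00000005338, chr1:173333258-173367695, minus strand) encodes a nectin-like adhesion molecule best known from neurons. It was at 0.474, 0.585 and 1.2 CPM in WT, from 20, 19 and 35 counts, and at 12.1, 8.57 and 11.7 CPM in Nfkb2-/-, from 408, 260 and 623 counts. The lowest Nfkb2-/- library was 7.11-fold above the highest WT library. The log2 fold change was 3.85 (SE 0.39), between 3.59 and 4.35 over all alternatives. Aim2, an inflammasome sensor of cytosolic DNA on the other strand, spans the start of Cadm3 but shares 0 bases of annotated exon with it. Aim2 was at 107, 132 and 120.1 CPM in WT and at 167, 169 and 156 CPM in Nfkb2-/- (log2 fold change 0.46, SE 0.14, adjusted p = 0.168 by edgeR). Ackr1, a chemokine-binding receptor downstream on the same strand, shares 361 bases of exon with Cadm3 and had 102 counts over all libraries. Ackr1 was at 0.142, 0.0615 and 0 CPM in WT and at 1.18, 0.330 and 0.823 CPM in Nfkb2-/-, so it was higher in every Nfkb2-/- library, as Cadm3 was, and how reads in that stretch were assigned is not given in the sources used here.

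Cadm1 (ENSMUSG00000032076, chr9:47530173-47857637, plus strand), the relative that marks conventional type 1 dendritic cells and binds Crtam on activated T and NK cells, did not go with Cadm3. It was at 1.66, 0.400 and 0.482 CPM in WT and at 1.77, 0.396 and 0.299 CPM in Nfkb2-/-. Replicate 1 was the high library in both genotypes, with 70 and 60 counts against 12 to 16 counts in the other libraries. The log2 fold change was -0.06 (SE 0.88) and took either sign as libraries were left out, from -1.33 without Nfkb2-/- replicate 1 to 0.90 without WT replicate 1. No difference in Cadm1 could be detected at this level.

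Epcam (ENSMUSG00000045394, chr17:87635979-87651129, plus strand) was at 3.96, 6.58 and 12.0 CPM in WT and at 8.42, 6.26 and 10.9 CPM in Nfkb2-/-, with a log2 fold change of 0.19 (SE 0.41). The highest and the lowest of the 6 values were both WT. The fold change ran from -0.12 without WT replicate 1 to 0.70 without WT replicate 3. Cdh1 and Epcam are both carried by Langerhans cells, yet only Cdh1 separated the genotypes. Cd207, which encodes langerin and defines these cells, was at 1.87, 0.246 and 1.14 CPM in WT and 1.18, 0.396 and 1.01 CPM in Nfkb2-/-. All 6 markers on the Langerhans list were detected. The 4 besides Cdh1 and Epcam had a summed level of 627, 594 and 645 CPM in WT and 577, 888 and 891 CPM in Nfkb2-/-, most of it Tgfbr1, so the genotypes overlapped. None of the 4 was called by edgeR, and Cd1d1 and Ltc4s had log2 fold changes of -0.79 and -0.69 and were lower in every Nfkb2-/- library.

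**Figure D2:**
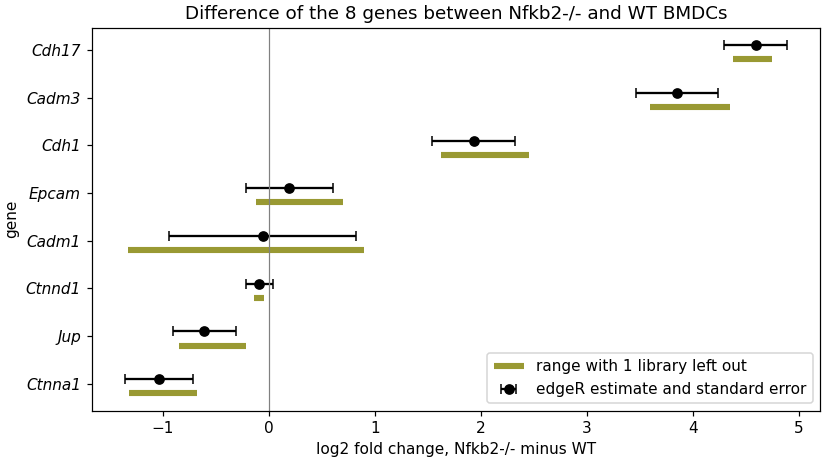
Difference of each of the 8 genes between genotypes as log2 fold change, Nfkb2-/- minus WT. Points and whiskers are edgeR's estimate and standard error over 6 libraries, and thick bars span the estimates with 1 library left out. Cdh17, Cadm3 and Cdh1 stay above 0 throughout, Ctnna1 and Jup stay below 0, and the bars of Cadm1 and Epcam cross 0.

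Levels of different genes were compared per kilobase of exon, where the place of Ctnnd1 is uncertain because of the exon it shares with Gm28635. In WT cells Ctnna1 led with 118 ± 51.1 CPM per kb (SD, n = 3), followed by Jup with 12.7 ± 5.39, Cdh1 with 8.57 ± 4.77 and Ctnnd1 with 7.82 ± 0.599 CPM per kb, whose libraries overlapped from each to the next. Epcam came below them with 3.42 ± 1.86 CPM per kb. Cadm3, Cadm1 and Cdh17 followed far below with 0.104 ± 0.0543, 0.0812 ± 0.0676 and 0.0624 ± 0.0187 CPM per kb and overlapped in turn. In Nfkb2-/- cells Ctnna1 still led with 57.3 ± 5.70 CPM per kb, and Cdh1 took the second place with 32.7 ± 4.63 CPM per kb, above every library of Jup (8.28 ± 1.15) and Ctnnd1 (7.37 ± 0.124). Cdh17 and Cadm3 stood at 1.52 ± 0.0816 and 1.48 ± 0.263 CPM per kb, which overlapped each other and remained under Epcam with 3.88 ± 1.05 CPM per kb. Cadm1 was last with 0.0788 ± 0.0789 CPM per kb. Among all genes tested, Cdh1 exceeded 66.3% to 85.4% in WT libraries and 93.7% to 95% in Nfkb2-/- libraries on this scale, whereas Cdh17 moved from 7.89% to 13.2% up to 44.1% to 45.7%.

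**Figure D3:**
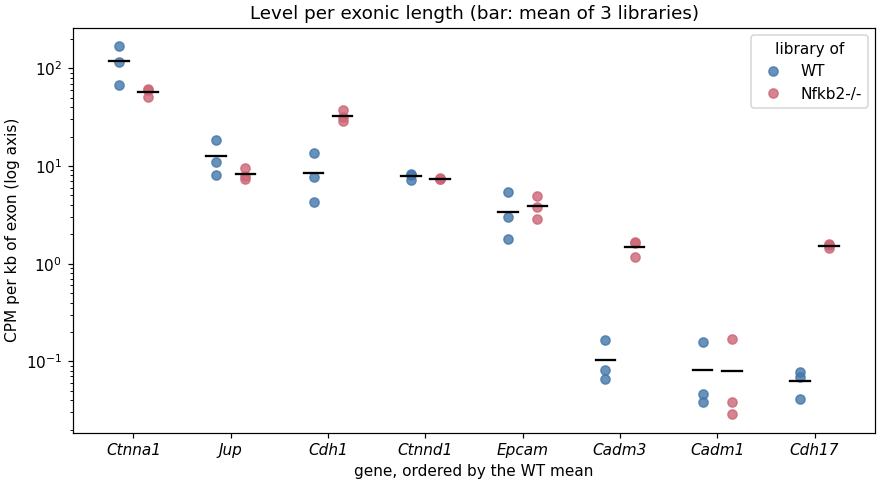
Level of the 8 genes per kilobase of exon (CPM per kb, log axis) in each WT and Nfkb2-/- library, ordered by the WT mean, with a bar for the mean of 3 libraries. Ctnna1 is highest in both genotypes, Cdh1 moves above Jup and Ctnnd1 in Nfkb2-/- cells, and Cadm3 and Cdh17 leave the level of Cadm1.

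Other adhesion genes were counted on 7 lists arranged by role, with the 8 genes left out. Of 190 genes on the lists, 154 were tested. Tjp1 and Ppl rose and Cask fell in Nfkb2-/- cells, that is 3 of 154, where 1.14% of all genes tested were called. Before adjustment 35 of the 154 had a p-value under 0.05 in edgeR, where 17.1% of all genes tested did. DESeq2 called 25 and limma voom 5 of the 154, where they called 8.65% and 2.23% of all genes tested, and the counts of single lists given below stand beside these shares. DESeq2 could call only the 16673 genes to which it gave an adjusted p-value, while its share is taken over all 21849. Without overlap were 42 of the 154 (27.3%), 24 higher and 18 lower, beside 24.7% of all genes tested. The 154 genes had a median log2 fold change of 0.25, against 0.08 for all genes tested. With Nfkb2-/- replicate 1 left out, 121 remained tested, their median was -0.10 against -0.03 for all genes tested, and none was called in edgeR, where no gene at all was called and 4088 had an unadjusted p-value under 0.05. No gene, Nfkb2 included, was called by edgeR either when WT replicate 1, Nfkb2-/- replicate 2 or Nfkb2-/- replicate 3 was left out (2325, 2580 and 2726 at an unadjusted p-value under 0.05), and without WT replicate 2 the number of list genes called was 18.

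Tjp1 encodes ZO-1, a scaffold that α-catenin binds in adherens junctions and that joins tight junctions to actin. It was at 3.37, 3.23 and 1.41 CPM in WT and at 16.4, 18.4 and 19.8 CPM in Nfkb2-/-, with a log2 fold change of 2.76 (SE 0.33, adjusted p = 0.0307 by edgeR). Among 31 tested catenin and adherens junction genes, whose median log2 fold change was 0.20, edgeR and limma voom called Tjp1 alone and DESeq2 also called Actn1, an actin crosslinker picked out after its values were seen (log2 fold change 0.53, SE 0.17). The most abundant of them per kilobase were the small GTPases Cdc42, Rap1b and Rac1, which steer actin at contacts. Their log2 fold changes were -0.03 (SE 0.17), -0.04 (SE 0.22) and 0.14 (SE 0.15), and none of these was called by edgeR.

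Ppl encodes periplakin, which connects junctions to keratin filaments. It was at 2.28, 2.52 and 2.24 CPM in WT and at 11, 8.77 and 7.43 CPM in Nfkb2-/-, with a log2 fold change of 1.95 (SE 0.22, adjusted p = 0.0277 by edgeR). The WT libraries were nearly equal and all lay well below the Nfkb2-/- libraries. Of the 7 desmosome genes tested, edgeR and limma voom called Ppl and DESeq2 called Ppl and Dsg2. Ppl itself formed the median of 1.95, but 4 of the 7 had a mean under 1 CPM and 4 were highest in Nfkb2-/- replicate 1. Without that library 5 remained tested and their median log2 fold change was -0.29. Dsg2, a desmosomal cadherin, was at 3.27, 2.34 and 2.31 CPM in WT and at 1.09, 0.593 and 0.299 CPM in Nfkb2-/- (log2 fold change -2.01, SE 0.50, adjusted p = 0.11 by edgeR). Perp, a membrane protein of desmosomes, overlapped with a log2 fold change of -0.28 (SE 0.35).

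Cask, a scaffold kinase that binds the tails of Cadm proteins, was at 142, 130.4 and 185 CPM in WT and at 45.0, 64.4 and 68.5 CPM in Nfkb2-/-, with a log2 fold change of -1.36 (SE 0.22, adjusted p = 0.0426 by edgeR). It was called in 7 of 13 alternatives, and its log2 fold change lay between -1.47 and -1.20 over all of them. With a library left out it was called only when that library was WT replicate 2, and it was not called with a block for the replicate number. It was thus lower while Cadm3 was higher and Cadm1 overlapped. Of 17 tested genes on the list of Cadm relatives, nectins and partners, it was the only one called by edgeR and by limma voom, and the median log2 fold change was -0.29. DESeq2 called 5, Cask, Epb41l2, Crtam, Epb41l3 and Cd226, the last 2 picked out after their values were seen. Epb41l2, a membrane-skeleton protein of the family that binds Cadm tails, was at 245, 199 and 275 CPM in WT and 128, 149 and 145 CPM in Nfkb2-/- (-0.77, SE 0.17, adjusted p = 0.0846 by edgeR). Crtam, the Cadm1 receptor, was at 8.54, 7.01 and 3.34 CPM in WT and 3.22, 1.62 and 1.2 CPM in Nfkb2-/- (-1.66, SE 0.48, adjusted p = 0.145 by edgeR). Tiam1, a Rac activator downstream of Cadm1, had a log2 fold change of 0.12 (SE 0.19).

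The remaining cadherins differed in direction. Of 50 further genes of the cadherin superfamily 36 were tested and none was called by edgeR, with 5 at an unadjusted p-value under 0.05. DESeq2 called 4 of them, Cdh2, Cdhr3, Pcdh15 and Pcdh19, of which the last 3 are named after their values were seen, and limma voom called 0. Cdhr3, a cadherin of ciliated epithelium, was at 0.380, 0.338 and 0.447 CPM in WT and at 2.95, 1.22 and 1.29 CPM in Nfkb2-/-, and Pcdh15, a partner of Cdh23 in hair cells, at 0.474, 1.05 and 0.206 CPM in WT and at 4.34, 1.71 and 2.88 CPM in Nfkb2-/-. Both were thus higher in every Nfkb2-/- library, with log2 fold changes of 2.22 (SE 0.50) and 2.36 (SE 0.62), and both were highest in Nfkb2-/- replicate 1. Pcdh19, a protocadherin, had a log2 fold change of -2.93 (SE 0.66). Cdh2, N-cadherin, was the most abundant at 101, 118 and 160.5 CPM in WT and 63.1, 78.6 and 74.0 CPM in Nfkb2-/- (log2 fold change -0.81, SE 0.20, adjusted p = 0.11 by edgeR), lower in every Nfkb2-/- library while Cdh1 was higher. Per kilobase, Cdh2 was at 15.7 CPM per kb in WT and 8.91 CPM per kb in Nfkb2-/-, against 8.57 and 32.7 CPM per kb for Cdh1, so the order of the E- and N-cadherin means turned between the genotypes. Clstn1, a calsyntenin, and Cdh23, the cadherin of hair cell tip links, had log2 fold changes of -0.14 (SE 0.28) and -0.90 (SE 0.38) and overlapped.

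The median log2 fold change of the 36 cadherin genes was 0.89, but 19 had a mean under 1 CPM and for 27 the top value belonged to Nfkb2-/- replicate 1. Without that library 20 remained tested and their median was -0.76.

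**Figure D4:**
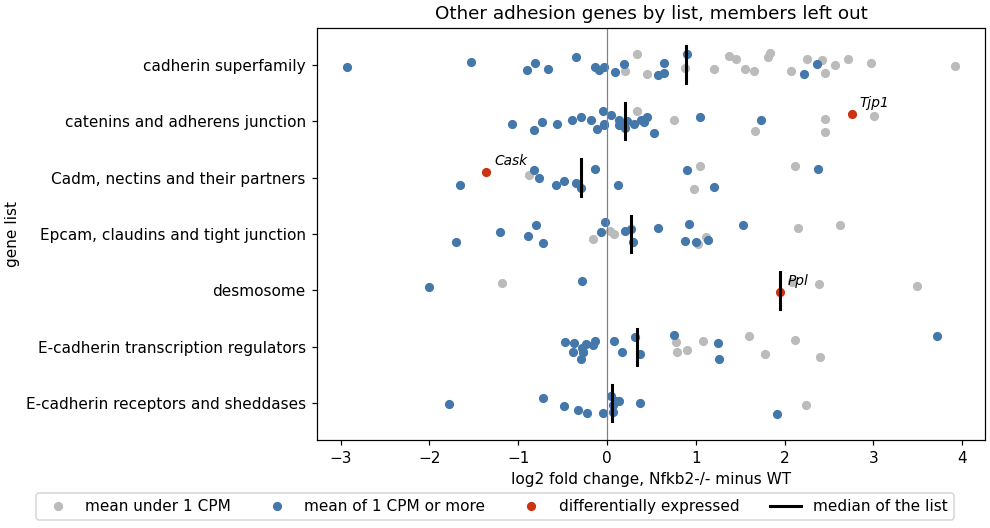
Log2 fold change, Nfkb2-/- minus WT, of 154 tested adhesion genes on 7 lists, with the 8 genes described above left out and points spread vertically for legibility. Grey points have a mean under 1 CPM, blue points 1 CPM or more, red points were differentially expressed (Tjp1, Ppl and Cask), and black bars are medians. The cadherin superfamily's points on the right are mostly grey.

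Among 23 tested claudin and tight junction genes, none was called by edgeR and 8 had an unadjusted p-value under 0.05. DESeq2 called 7 of this list and limma voom 1, Cldn1. Cldn1, claudin-1, which Langerhans cells and other dendritic cells use to pass tight junctions, was at 76.6, 118 and 153 CPM in WT and 274, 326 and 405 CPM in Nfkb2-/-. Its genotypes did not overlap, and the log2 fold change of 1.53 (SE 0.28) had an adjusted p = 0.0557 by edgeR. Cldnd1, a distant claudin relative, was at 56.7, 107 and 70.2 CPM in WT and at 135, 183 and 197 CPM in Nfkb2-/- (1.14, SE 0.27, adjusted p = 0.0979 by edgeR). Cd9, a tetraspanin that associates with Epcam and claudins, had a log2 fold change of -0.02 (SE 0.21).

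Of the receptors and proteases that act on E-cadherin, 14 of 16 were tested and none was called by edgeR, with 5 at an unadjusted p-value under 0.05. DESeq2 called 3 of them, Itgae, Mmp14 and Psen2, the last 2 named after their values were seen, and limma voom called Itgae. Mmp14 and Psen2 were lower in every Nfkb2-/- library, with log2 fold changes of -1.78 and -0.72. Itgae encodes the αE integrin chain (CD103), which binds E-cadherin as a pair with β7 and marks a class of gut dendritic cells. It was at 1.73, 4.46 and 1.86 CPM in WT and at 11.3, 7.94 and 11.2 CPM in Nfkb2-/-, 3.78-fold higher without overlap and not called (log2 fold change 1.92, SE 0.40, adjusted p = 0.0735 by edgeR). Like Cdh1, it was highest among WT libraries in replicate 2. Itgb7, which encodes β7 and was picked out after its values were seen, overlapped between the genotypes. It was at 11.1, 25.6 and 3.99 CPM in WT and at 11.8, 7.75 and 12.7 CPM in Nfkb2-/- (log2 fold change -0.33, SE 0.58). Klrg1, an inhibitory receptor for E-cadherin, had 3 and 10 counts in replicate 1 of WT and Nfkb2-/- and 0 in the other libraries and was not tested. Adam10, the main sheddase of E-cadherin, had a log2 fold change of 0.04 (SE 0.18), and the calpain genes Capn1 and Capn2 had -0.23 (SE 0.18) and -0.49 (SE 0.19).

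Of 32 transcription regulators of E-cadherin 26 were tested and none was called by edgeR, with 3 at an unadjusted p-value under 0.05. DESeq2 called 2, Snai3 and Ehf, both picked out after their values were seen, and limma voom 0. Both were higher in every Nfkb2-/- library. Snai3 was at 0.142, 0.308 and 0 CPM in WT and at 3.13, 1.98 and 1.03 CPM in Nfkb2-/-. Its log2 fold change was 3.72 (adjusted p = 0.116 by edgeR), and that of Ehf was 1.25 (adjusted p = 0.0969 by edgeR). Of the 26 regulators, 3 were higher without overlap and 3 lower. Zeb1 and Zeb2, repressors of Cdh1 in epithelial cells, were abundant in both genotypes. Zeb1 was at 189, 172 and 221 CPM in WT and at 145, 169.8 and 168 CPM in Nfkb2-/- (log2 fold change -0.27, SE 0.16, adjusted p = 0.438 by edgeR). Each Nfkb2-/- library was thus below every WT library in Zeb1, though by little, and WT replicate 3 was the highest. Zeb2 was at 655, 822 and 289 CPM in WT and at 366, 492 and 512 CPM in Nfkb2-/- (-0.37, SE 0.37, adjusted p = 0.649 by edgeR). In WT replicate 3, where Cdh1 was lowest, Zeb2 was thus at its lowest and Zeb1 at its highest. A part of Zeb1 or Zeb2 in the Cdh1 difference was not tested. Snai1 was at 0.0344 to 0.237 CPM in WT and at 0.0989 to 0.650 CPM in Nfkb2-/-, near the floor. Id2, Spi1 and Sp1, the most abundant regulators per kilobase, had log2 fold changes of -0.38 (SE 0.28), 0.37 (SE 0.14) and -0.24 (SE 0.16) and were not called.

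Neighbours on the chromosome were not called with the genes that were higher. The nearest tested genes on either side were Gm10073 and Tango6 for Cdh1, Gem and Pdp1 for Cdh17, and Dusp23 and Ifi206 for Cadm3, none of which was called. Tango6, 12.8 kb from Cdh1, had a log2 fold change of 0.71 (adjusted p = 0.276 by edgeR) and Gem, 43.4 kb from Cdh17, one of -0.14 (adjusted p = 0.883 by edgeR). Dusp23, 700.3 kb from Cadm3, was higher in every Nfkb2-/- library (log2 fold change 0.81, adjusted p = 0.252 by edgeR). Gm10073, Tango6, Gem, Pdp1 and Ifi206 overlapped between the genotypes.

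The genes whose log2 CPM over the 6 libraries followed each of the 3 most closely differed from gene to gene. For Cdh1 they included the replication genes Mcm10 (Pearson r = 0.9975) and Mcm2 (0.9965). Mcm10 was at 2.04, 4.43 and 1.10 CPM in WT and 10.1, 9.86 and 11.7 CPM in Nfkb2-/-, with the same order of WT libraries as Cdh1. For Cdh17 they were Sec31a (0.9959), Cd52 (0.9926) and Clic1 (0.9914), and for Cadm3 they included Cs (0.9993) and Gcnt2 (0.9990). These values are descriptions over 6 libraries that share 2 genotypes. Among the 10645 genes averaging 5 CPM or more, 513 had an r over 0.95 with Cdh1 and 129 with Cadm3, and with Cdh17 there were 106 among 10646.

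Cdh1, Cdh17 and Epcam are epithelial genes elsewhere, and the epithelial markers were near the floor. Of 10 such markers 7 were tested and none was called by edgeR. Their summed level was 2.37 to 5.10 CPM in WT and 9.51, 1.68 and 1.53 CPM in Nfkb2-/- replicates 1, 2 and 3. Replicate 1 was thus above every WT library, and replicates 2 and 3 were below. A part of epithelial cells in the Cdh1 difference was not tested. Itgax, which encodes CD11c, was 1 of the 9 dendritic cell markers called: it was at 160.4, 277 and 123 CPM in WT and at 745, 769 and 716 CPM in Nfkb2-/- (log2 fold change 1.99, SE 0.30, adjusted p = 0.0414 by edgeR). The list as a whole was split, with 5 markers above and 4 below a log2 fold change of 0. Zbtb46, a transcription factor of conventional dendritic cells, was at 168, 151 and 218 CPM in WT and at 115, 136 and 119 CPM in Nfkb2-/-. The log2 fold changes of Zbtb46, Ccr7, Batf3 and Flt3 were -0.54, -0.97, -0.37 and -0.17, and none of these was called by edgeR. The WT libraries of Itgax had the same order as those of Cdh1, and its part in the Cdh1 difference was not tested. None of the 7 macrophage markers was called.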

How the data were processed

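RNA-seq libraries of unstimulated BMDCs were used, 3 WT and 3 Nfkb2-/-, grouped by the sample labels. The authors deposited raw read counts per Ensembl gene for each library. The submitters' processing notes name HISAT2 and the builds GRCm38 and mm10. The counting tool, annotation and use of strand are not given in the sources used here, so counts of overlapping and antisense genes are uncertain. A further deposited table with the same counts side by side was left aside.

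IDs with a name in GENCODE M21 (52073 of 56748) and at least 50 counts over the libraries were kept, 21849 in all. IDs without a name held 1.01% to 1.75% of the counts and stayed out of library sizes. Genotypes were compared with edgeR 4.0.16 (TMM, glmQLFit, glmQLFTest, no covariates, R 4.3.3), with Benjamini-Hochberg adjustment over all genes tested, a threshold of 0.05 and a fold change over 1.2. The SE is the log2 fold change over the square root of F. CPM per kb used the union of exons in GENCODE M21, and coordinates are from it. The common dispersion was 0.219. Exact permutation of 3 against 3 libraries cannot give a p-value below 0.1. The fits were checked on simulated counts.

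The 8 genes, the lists and the tests were chosen with earlier results of these data known. Named genes are the 8, Nfkb2, every called list gene, in each list the 3 genes with the highest mean CPM per kb, Ctnnb1, Itgae, Klrg1, Crtam, Snai1, Zeb1 and Zeb2, and for Cdh1, Cdh17 and Cadm3 the 3 genes averaging 5 CPM or more with the highest Pearson r, of which some are not reported here. Marker lists covered 11 cell types. Promoter sequences are from RefSeq. The κB consensus was searched by its degenerate form. Alternatives were DESeq2 1.42.0, limma voom (limma 3.58.1), RLE size factors, total counts, other filters, a block for the replicate number, leaving out each library and other gene lengths.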

Additional observations from a re-analysis of the deposited data

How the results depend on the processing

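The 8 genes' log2 fold changes kept their sign in all 13 alternatives for Cdh1 (1.62 to 2.45), Cdh17 (4.38 to 4.75), Cadm3 (3.59 to 4.35), Ctnna1 (-1.32 to -0.68), Jup (-0.85 to -0.22) and Ctnnd1, and in 9 for Cadm1 and 11 for Epcam. Of the 8, edgeR called 2, DESeq2 4 (with Cdh1 and Ctnna1), limma voom and edgeR with no filter 3 each (with Cdh1), and 0 to 4 with a library left out. As the 8 were chosen on this contrast, nothing is read from their calls. Of the list genes, edgeR called 3, DESeq2 25, limma voom 5, edgeR with no filter beyond 1 count 24, and 0 to 18 with a library left out. Over all genes these counts were 248 in edgeR, 1890 in DESeq2, 397 with filterByExpr, 488 in limma voom, 1625 with no filter, and 0 to 1248 with a library left out. No gene was called in edgeR when WT replicate 1 or any Nfkb2-/- replicate from 1 to 3 was left out (2325, 4088, 2580 and 2726 at an unadjusted p-value under 0.05), and 1248 were called without WT replicate 2, so which calls are made rests on single libraries, and the cause was not tested. Tjp1 (log2 fold change 2.46 to 2.97, adjusted p 1.55e-15 to 0.163) and Ppl (1.78 to 2.08, 3.26e-10 to 0.163) were called in 8 of 13 alternatives and Cask (-1.47 to -1.20, 7.24e-06 to 0.217) in 7. With the replicate block, 0 of the 8 genes, 0 list genes and 0 genes in all were called by edgeR (3331 unadjusted). Same-numbered libraries deviated together with correlations of 0.262, 0.148 and 0.0224, and WT replicate 2 went more with Nfkb2-/- replicate 3 (0.164). Other pairs with WT replicate 1 or Nfkb2-/- replicate 1 had correlations from -0.237 to -0.0198. Whether the numbers mark pairs cannot be told from these values, and the main fit did not take them as pairs. The order of levels per length kept 4 of 8 ranks with the longest transcript and 4 with the coding length, since Cdh1 and Ctnnd1, and Cadm3 and Cadm1, changed places in WT. Uncalled differences near 0 changed sign: with a library left out they ran from -0.01 to 0.28 for Tiam1, -0.12 to 0.18 for Adam10, -0.16 to 0.12 for Cd9, -0.36 to 0.12 for Clstn1, -0.10 to 0.06 for Cdc42, -0.18 to 0.15 for Rap1b and -0.53 to 0.15 for Perp. With total counts they were 0.03 for Cd9, 0.06 for Cdc42 and 0.03 for Rap1b, and with no filter -0.01 for Adam10.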

Other observations

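Markers of other cell types were compared as summed CPM over each list. Neutrophil markers were at 65.7 to 146 CPM in WT and 102 to 112 CPM in Nfkb2-/- libraries, and mast cell and basophil markers at 46.9 to 55.9 and 48.6 to 57.6 CPM. Of the latter, Cpa3, a mast cell protease, fell from 10.8, 6.31 and 6.85 CPM in WT to 1.86, 2.34 and 2.49 CPM in Nfkb2-/- (log2 fold change -1.84, adjusted p = 0.0413 by edgeR). Of the 6 mast cell and basophil markers tested 4 had a log2 fold change below 0 and 2 above. Gata2, a transcription factor of that lineage, was at 1.33, 1.91 and 0.688 CPM in WT and at 4.05, 3.66 and 3.22 CPM in Nfkb2-/- (log2 fold change 1.47, SE 0.38, adjusted p = 0.119 by edgeR), and Kit, the stem cell factor receptor, had a log2 fold change of 0.18 (SE 0.15). Endothelial markers were at 45.5, 55.7 and 6.75 CPM in WT replicates 1, 2 and 3 and 30.5 to 36.7 CPM in Nfkb2-/-, so WT replicate 3 was low in these as well as in macrophage markers. Fibroblast and stromal markers were at 55.5, 15 and 1.69 CPM in WT and 30.5, 17.5 and 6.72 CPM in Nfkb2-/- replicates 1, 2 and 3, highest in replicate 1 of both genotypes, as Cadm1 was. B cell markers were at 1.07 to 1.64 CPM in WT and 0.767 to 7.12 CPM in Nfkb2-/-, T and NK cell markers at 1.26 to 3.75 and 1.71 to 5.58 CPM, and erythroid markers at 3.79 to 5.29 and 3.34 to 5.37 CPM.

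Of the 154 adhesion genes on the lists, 39 did not overlap between genotypes without being called by edgeR, and 3 of them are given here, picked out after their values were seen. F11r, the junctional adhesion molecule JAM-A, was at 30.2, 13.8 and 43.1 CPM in WT and at 9.04, 8.40 and 9.35 CPM in Nfkb2-/- (log2 fold change -1.70, SE 0.38, adjusted p = 0.0877 by edgeR). Pcdh19, a protocadherin, was at 4.65, 1.63 and 4.85 CPM in WT and at 0.945, 0.264 and 0.262 CPM in Nfkb2-/- (-2.93, SE 0.66, adjusted p = 0.0904 by edgeR). Epb41l3, which binds Cadm tails, was at 15, 17.6 and 7.85 CPM in WT and at 30.1, 31.1 and 32.1 CPM in Nfkb2-/- (1.21, SE 0.29, adjusted p = 0.0991 by edgeR), the direction opposite to that of its relative Epb41l2. Of all 154, 27.3% did not overlap, against 24.7% of all genes tested.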
